A study of Homo sapiens with 6 samples.

Results

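The genes described are 10 known silencers of the fetal globin genes and regulators of those silencers: BCL11A, ZBTB7A, NFIA, NFIX, SOX6, MYB, HIC2, LIN28B, IGF2BP1 and IGF2BP3. They were taken by symbol from the 26485 symbols of the count tables, and all 10 symbols were found. No measured value entered the rule for taking them, but earlier results of these data were known when they were chosen. The cells were K562, an established human erythroleukaemia line that expresses embryonic and fetal globin. CRISPR guide sgNeg2 gave the 2 control libraries, labelled wild type, and guides sgRNA1 and sgRNA2 against the zinc-finger factor ZNF410 gave 2 libraries each, labelled ZNF410 knockout. All groups were the same line in the same medium, with no further treatment in the labels, and each group had a replicate 1 and a replicate 2. The labels do not state whether the cells were a clone or a pool, or whether the replicates were separate cultures, so p-values measure only the spread between these libraries, which may be technical. The question was whether silencers other than CHD4, the nucleosome remodeller that ZNF410 is known to activate, change when ZNF410 is targeted.

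Human red cells switch from fetal globin, made from HBG1 and HBG2, to adult globin, made from HBB, around birth. BCL11A and ZBTB7A are DNA-binding repressors that bind the fetal globin promoters and recruit the NuRD co-repressor complex, of which CHD4 is the ATPase. A fetal programme opposes this switch: the RNA-binding protein LIN28B blocks maturation of the let-7 microRNAs, which otherwise repress IGF2BP1, IGF2BP3 and LIN28B itself, and HIC2 represses BCL11A.

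The let-7 microRNAs are shown because their shared seed is what ties LIN28B to the IGF2BP genes in this background. The 9 family members in the RefSeq table (GRCh38.p14, 12 loci) had 1 seed between them, bases 2 to 8 of the mature strand, which stand in capitals below. Of the 9, let-7a, let-7d and miR-98 are printed. Mature microRNAs were not measured in these libraries.
hsa-let-7a-5p: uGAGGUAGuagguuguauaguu
hsa-let-7d-5p: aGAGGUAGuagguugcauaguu
hsa-miR-98-5p: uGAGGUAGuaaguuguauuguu

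The libraries held 8788816 to 9537470 gene counts each, so that 3 counts, the limit a count of 0 allows, correspond to 0.315 to 0.346 CPM (a gene's counts scaled to the TMM-adjusted library size). This limit covers counting error only. The level of ZNF410 was 38.2 and 34.0 CPM under sgNeg2 and 17.0 to 24.5 CPM in the 4 knockout libraries. CHD4 had 590 and 666 CPM in the control libraries and 284 to 326 CPM in the knockout libraries, so both genes were lower in all 4. All 7 markers of K562 cells counted here reached 10 CPM or more in every library. Of 12 markers of other cell types, 2 did so in every library, the epithelial genes EPCAM and KRT8, and 2 were at 0 in all. Their summed level was 409 to 582 CPM in the control and 370 to 572 CPM in the knockout libraries. The libraries differed more by replicate number than by guide. The main test was edgeR's quasi-likelihood test across all 12282 genes that passed the low-count filter, without regard to the number. The same test with the number as a block is given beside it. In bulk RNA, fewer cells that express a gene and less of its RNA per cell cannot be told apart.

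The 10 genes spanned a wide range of levels in control cells. On the length-scaled FPKM of the deposited tables, MYB was highest, at 105.9 and 67.4 FPKM in control replicates 1 and 2. IGF2BP1 (37.8 and 53.3 FPKM), HIC2 (27.6 and 44.0 FPKM) and LIN28B (24.9 and 36.8 FPKM) came next. Neighbours in this order overlapped when the 2 control libraries were pooled, but the order was the same within each control library and within each of the 4 knockout libraries. IGF2BP3 had 23.1 and 24.5 FPKM, its higher value lying just under the lower value of LIN28B. ZBTB7A followed at 8.43 and 11.3 FPKM, NFIX at 3.93 and 4.84 FPKM and NFIA at 1.58 and 1.64 FPKM. SOX6 had 0.50 and 0.69 FPKM, and BCL11A was listed at 0.03 FPKM in control replicate 1 and at 0 in the other 5 libraries. The fetal-stage RNA-binding genes and HIC2 thus stood above every DNA-binding silencer of fetal globin in the set, and MYB stood above all of them.

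**Figure D1:**
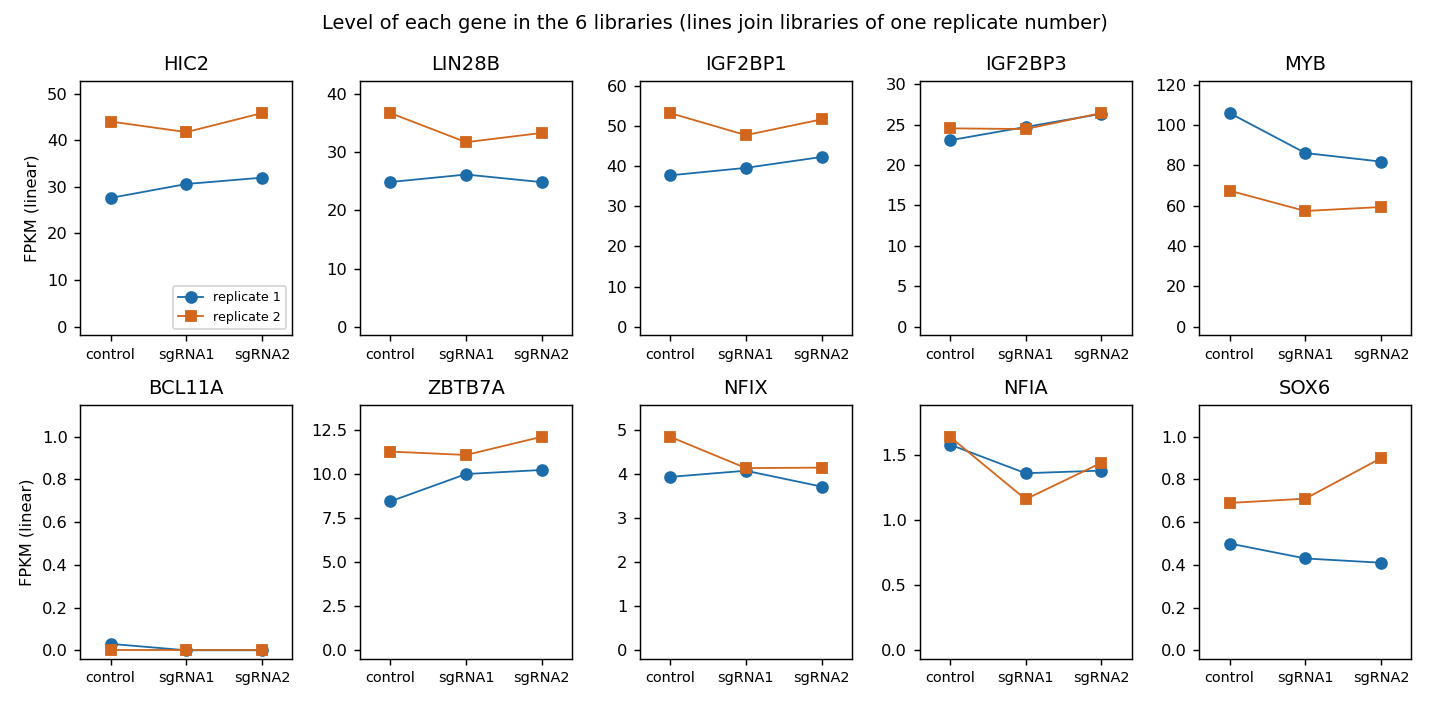
FPKM (linear scale, from 0) of each of the 10 genes in the control, sgRNA1 and sgRNA2 libraries, with lines joining libraries of the same replicate number. MYB lies higher in replicate 1 of each group, ZBTB7A, HIC2, LIN28B, IGF2BP1 and SOX6 lie higher in replicate 2, and BCL11A is at or near 0 throughout.

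BCL11A (chr2:60450520-60553924, RefSeq GRCh38.p14), the best known repressor of HBG1 and HBG2, had 0 counts in all 6 libraries. The estimated counts of the second table had 1, in control replicate 1. By the whole-number counts the level was therefore at or under 0.346 CPM in each, and no change with either guide was measurable at this depth. It was the 1 gene of the 10 that the filter on low counts left out, and the other 9 were tested.

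ZBTB7A (chr19:4043303-4066899), also called LRF, represses fetal globin independently of BCL11A. It stood at 45.7 and 66.9 CPM in the sgNeg2 pair, 55.5 and 68.8 CPM in the sgRNA1 pair and 58.7 and 72.8 CPM in the sgRNA2 pair. Each knockout library was above the control of the same number, but those numbered 1 stayed below control replicate 2, so the groups overlapped. The log2 fold change of knockout against control was 0.18 (SE 0.185, 95% confidence interval -0.26 to 0.62) without the block and 0.19 (SE 0.0772, 0.03 to 0.36) with it. It was not called in either fit, with a blocked edgeR adjusted p of 0.289.

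NFIA (chr1:61077227-61462788) and NFIX (chr19:12995475-13098796) are nuclear factor I proteins that bind DNA and take part in fetal globin silencing. NFIA stood at 14.9 and 17.2 CPM in the sgNeg2 pair, 12.3 and 12.9 CPM in the sgRNA1 pair and 13.3 and 12.3 CPM in the sgRNA2 pair. The 4 values with either guide were under the lower control value, without overlap, and the same held on the FPKM scale (1.16 to 1.44 against 1.58 and 1.64). The log2 fold change was -0.34 in both fits, with an SE of 0.146 without the block and 0.137 with it, and the blocked interval ran from -0.63 to -0.04. This change was the largest of the 9 tested genes in both of these fits and was not called, at a blocked edgeR adjusted p of 0.298. It was not the largest in every setting: MYB exceeded it with limma on log2(FPKM + 1) (-0.16 for NFIA against -0.27), and MYB and ZBTB7A did so in the blocked fit without control replicate 2 (-0.22 for NFIA against -0.35 and 0.32), among other settings. NFIX stood at 23.0 and 26.4 CPM in the sgNeg2 pair, 24.1 and 25.6 CPM in the sgRNA1 pair and 24.4 and 23.5 CPM in the sgRNA2 pair. In CPM its knockout libraries all lay between its 2 controls, while in FPKM sgRNA2 replicate 1 (3.71) was below both (3.93 and 4.84). The blocked log2 fold change of NFIX was -0.01 (SE 0.107, interval -0.24 to 0.21), and -0.13 with estimated counts.

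SOX6 (chr11:15966449-16738477), a DNA-binding partner of BCL11A in globin silencing, was scarce. It stood at 36 and 70 counts in the sgNeg2 pair, 43 and 67 in the sgRNA1 pair and 40 and 66 in the sgRNA2 pair, and the control values enclosed all the others. On the FPKM scale they did not: the 4 knockout libraries had 0.43, 0.71, 0.41 and 0.90 FPKM, below or above both controls (0.50 and 0.69). Its blocked log2 fold change was 0.02 (SE 0.209), with an interval of -0.43 to 0.47 that was the widest of the 9 tested genes.

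MYB (chr6:135181308-135219172) is the transcription factor of haematopoietic progenitors whose loss or reduced activity is known to go with higher fetal globin. The libraries of replicate 1 had 344 CPM under sgNeg2, 280 CPM under sgRNA1 and 259 CPM under sgRNA2. Those of replicate 2 had 219 CPM under sgNeg2, 190 CPM under sgRNA1 and 193 CPM under sgRNA2. Within each number both guides were below the control, at 0.814 and 0.868 times its level with sgRNA1 and 0.754 and 0.877 times with sgRNA2. Across numbers the groups overlapped, since both knockout libraries of replicate 1 were above control replicate 2.

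For MYB the unblocked log2 fold change was -0.29 (SE 0.231, interval -0.84 to 0.26), and the edgeR adjusted p was 1.00. With the block it was -0.28 (SE 0.0570, interval -0.40 to -0.15), a fall of 17.5%, and the edgeR adjusted p was 0.0206. By guide, the blocked log2 fold changes were -0.25 (SE 0.0665) with sgRNA1 and -0.30 (SE 0.0667) with sgRNA2. Their edgeR adjusted p-values were 0.116 and 0.0374. Over the 9 blocked settings with all libraries, MYB was called in 1 with sgRNA1 and in 4 with sgRNA2. The guides themselves did not differ by a called amount, so the difference between these calls is not shown to be a difference between guides. The call in the knockout contrast was lost in 3 of the 6 blocked fits that left out 1 library: without control replicate 1 (log2 fold change -0.20, edgeR adjusted p = 0.309), without sgRNA1 replicate 1 (-0.29, 0.0520) and without sgRNA2 replicate 1 (-0.25, 0.0623). Among the 7 K562 markers, 3 globin genes were called higher in the same blocked contrast: HBE1, HBG1 and HBZ. The markers summed to 2375 and 4132 CPM in the control libraries and to 2585 to 5126 CPM in the knockout libraries. Of the 7 tested markers of other cell types, 2 were called higher, COL1A1 and the adult globin gene HBB. The part of these markers in the MYB result was not tested.

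The start of MYB is shown because it was the 1 gene of the set called in the blocked knockout contrast, beside that of HIC2, which went the other way between replicate numbers. The 250 bases before each RefSeq start (GRCh38.p14, plus strand) are printed, with matches to the GC box GGGCGG or its reverse complement CCGCCC in capitals.
MYB, chr6:135181058-135181307: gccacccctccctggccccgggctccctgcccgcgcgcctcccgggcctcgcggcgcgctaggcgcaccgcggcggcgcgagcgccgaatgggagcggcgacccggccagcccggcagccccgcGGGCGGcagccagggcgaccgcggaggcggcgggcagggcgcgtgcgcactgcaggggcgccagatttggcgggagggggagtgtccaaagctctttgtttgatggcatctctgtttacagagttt
HIC2, chr22:21417121-21417370: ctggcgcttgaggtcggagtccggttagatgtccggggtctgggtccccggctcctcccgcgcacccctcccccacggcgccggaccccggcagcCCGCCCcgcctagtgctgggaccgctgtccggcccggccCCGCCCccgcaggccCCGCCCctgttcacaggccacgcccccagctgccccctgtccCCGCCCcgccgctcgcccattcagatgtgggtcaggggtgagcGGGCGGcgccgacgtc
The MYB stretch had 75.6% G or C, 34 CpG and 1 GC box, and the HIC2 stretch had 78% G or C, 29 CpG and 5 GC boxes. The letters CCCATAATA, the core of the ZNF410 motif, were searched on both strands of the 300-base windows around RefSeq starts, 250 bases before and 50 after. They occurred in 0 of 25 windows of the 9 genes that had one and in 0.0854% of all 35116 windows. The GATA motif AGATAA, bound by GATA1, occurred in 2 of the 25 windows (10.3% of all windows). The CCAAT box, bound by NF-Y, occurred in 9 (34.6% of all) and the GC box in 16 (45% of all). None of the 4 motifs contains another, and a match is a description of letters only.

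HIC2 (chr22:21417371-21451463), a zinc-finger repressor of BCL11A, stood at 194 and 315 CPM in the sgNeg2 pair, 222 and 292 CPM in the sgRNA1 pair and 227 and 315 CPM in the sgRNA2 pair. Low and high values alternated with the replicate number in every group. The blocked log2 fold change with knockout was 0.07 (SE 0.0638, interval -0.07 to 0.21).

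LIN28B (chr6:104937026-105083332) stood at 138 and 204 CPM in the sgNeg2 pair, 140 and 176 CPM in the sgRNA1 pair and 137 and 183 CPM in the sgRNA2 pair. Its replicate 1 libraries were nearly level, while in replicate 2 both guides were below the control. The blocked log2 fold change was -0.09 (SE 0.0603, interval -0.22 to 0.03). IGF2BP1 (chr17:48996558-49056145), an RNA-binding protein of the fetal stage, stood at 342 and 478 CPM in the sgNeg2 pair, 364 and 443 CPM in the sgRNA1 pair and 380 and 467 CPM in the sgRNA2 pair. Its knockout libraries all lay between its controls, and the blocked log2 fold change was 0.02 (SE 0.0557, interval -0.10 to 0.14). IGF2BP3 (chr7:23310209-23470491), its close paralog, stood at 97.0 and 99.7 CPM in the sgNeg2 pair, 104.5 and 101.3 CPM in the sgRNA1 pair and 113 and 107 CPM in the sgRNA2 pair. All 4 knockout values were above both controls in CPM, by a small margin, but on the FPKM scale sgRNA1 replicate 2 (24.44) was just under control replicate 2 (24.53). The blocked log2 fold change of IGF2BP3 was 0.12 (SE 0.0650, interval -0.02 to 0.25), which was not called (edgeR adjusted p = 0.498).

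**Figure D2:**
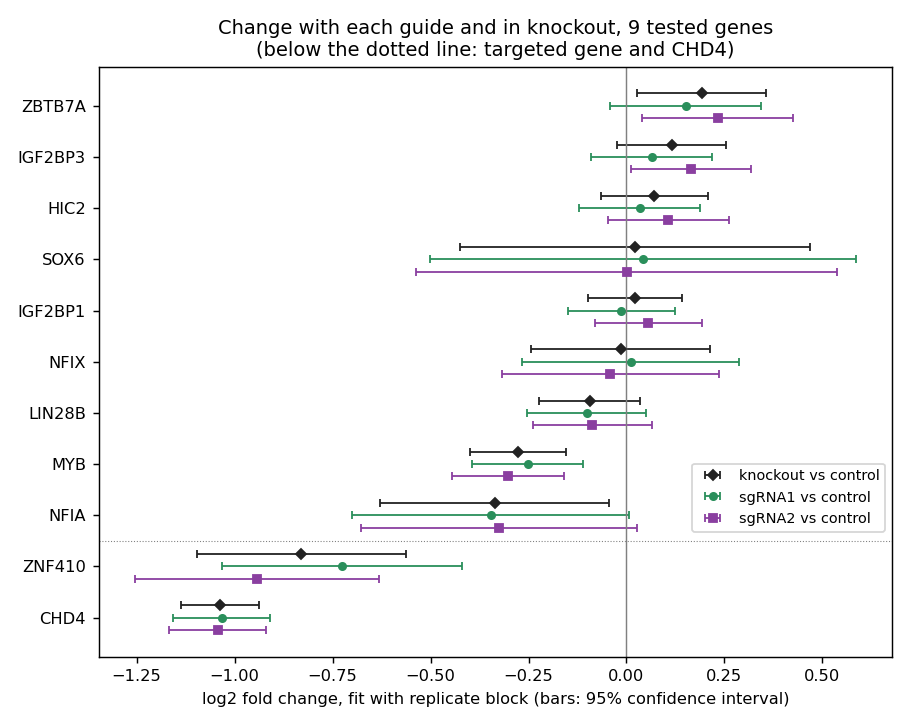
Log2 fold change against control (x axis) of each tested gene with sgRNA1, with sgRNA2 and in both together, from the fit with a replicate block, with 95% confidence intervals as bars. CHD4 and ZNF410, below the dotted line, lie near -1, while the intervals of most of the 9 genes above it are narrow and cross or come close to 0, and that of MYB stays below 0.

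Counted together, 0 of the 9 tested genes were called in the knockout contrast without the block, where 0% of the 12282 genes were called. CHD4 and the targeted ZNF410 were not called in that fit either (edgeR adjusted p = 0.127 and 0.9999). The 0 calls therefore cannot show that the set was unchanged. At an unadjusted p under 0.05 that fit had 0 of the 9 and 284 of all genes, and the DESeq2 Wald test called 19 genes in all and limma 1, neither of them in the set. The same count was 0 with sgRNA1 (0% of all genes, 120 at an unadjusted p under 0.05), 0 with sgRNA2 (0%, 141 unadjusted) and 0 between the guides (0%, 33 unadjusted). With the block, 1 of the 9 was called in the knockout contrast, MYB, against 1.84% of all genes, or 0.651% counting lower genes only. At an unadjusted p under 0.05 the blocked fit had 3 of the 9, ZBTB7A, MYB and NFIA, and 1590 of all 12282 genes. With sgRNA1 the blocked fit called 0 of the 9 (0.887% of all genes), with sgRNA2 1, again MYB (1.38%), and between the guides 0 (0.0896%). The median size of the blocked log2 fold change was 0.094 over the 9 genes and 0.098 over all genes.

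The intervals bound what these libraries could have missed. Of the 8 genes not called with the block, 7 had a 95% interval that lay wholly within a 1.5-fold change either way. NFIA was the exception, with a lower bound of -0.63 on the log2 scale. These intervals assume that the replicate number pairs the libraries. Without the block, 4 of the same 8 lay within 1.5-fold, and ZBTB7A, NFIA, HIC2 and SOX6 reached beyond it.

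The position of the libraries was also counted without a model. In 2 of the 9 genes, NFIA (lower) and IGF2BP3 (higher), all 4 knockout libraries lay on 1 side of both controls, as they did in 9.44% of all tested genes. In 4 of the 9, ZBTB7A, MYB, NFIA and IGF2BP3, each knockout library lay on the same side of the control of its own number, as in 31.2% of all tested genes. Both guides are set against the same 2 control libraries in these counts. NFIX, HIC2, LIN28B, IGF2BP1 and SOX6 had knockout libraries on both sides of their same-numbered controls.

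The difference between replicate numbers was larger than that with ZNF410 targeting for most of the set. In the fit with guide and number, 6 of the 9 genes were called between replicate 2 and replicate 1, where 45.0% of all tested genes were called. SOX6 (log2 difference 0.71, SE 0.208), HIC2 (0.52, SE 0.0591), LIN28B (0.44, SE 0.0580), ZBTB7A (0.39, SE 0.0734) and IGF2BP1 (0.36, SE 0.0518) were higher in replicate 2. These were 5 of the 9, against 21.6% of all genes called higher. MYB was lower (-0.55, SE 0.0546), 1 of the 9 against 23.5% of all genes called lower. NFIX (0.08), NFIA (0.06) and IGF2BP3 (-0.03) were not called. The median size of this difference was 0.387 on the log2 scale over the 9 genes and 0.255 over all tested genes. The edgeR adjusted p-values of the 6 called genes ran from 2.42e-06 for MYB to 0.0127 for SOX6. The call of SOX6 held in 5 of 9 blocked settings with all libraries, and its log2 difference was 0.29 with limma on log2(FPKM + 1). ZBTB7A lost its call in 1, limma with no FPKM filter (0.25, adjusted p = 0.0697).

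In size, the 6 genes called between numbers differed most within the control pair. HIC2 was 1.62 times as high in replicate 2 as in replicate 1 of the control, 1.32 times under sgRNA1 and 1.39 times under sgRNA2. ZBTB7A was 1.47 times as high in the control and 1.24 times with either guide, and LIN28B 1.48, 1.26 and 1.33 times. For MYB the ratio was 0.638 under sgNeg2, 0.680 under sgRNA1 and 0.743 under sgRNA2. The control ratio was the furthest from 1 of the 3 groups in all 6 of these genes, and in 42.2% of the 5529 genes called between numbers. Each group supplies 1 such ratio, and whether the ratio differs between groups was not tested. What a replicate number stands for is not given in the labels. Globin genes also differed by number: 7 of 8 were called higher in replicate 2, among them HBE1 by 2.47 and HBG2 by 1.08 on the log2 scale. Markers of other cell types differed too. Of the 7 tested, 3 were called lower in replicate 2, the T-cell gene CD3D by -2.53, the monocyte gene LYZ by -2.34 and KRT8 by -0.65 on the log2 scale, and HBB was called higher. The 12 markers summed to 526 to 582 CPM in replicate 1 and 370 to 409 CPM in replicate 2, and the 7 K562 markers to 2375 to 2587 and 4132 to 5126 CPM. The part of these differences in the replicate differences of the set was not tested.

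**Figure D3:**
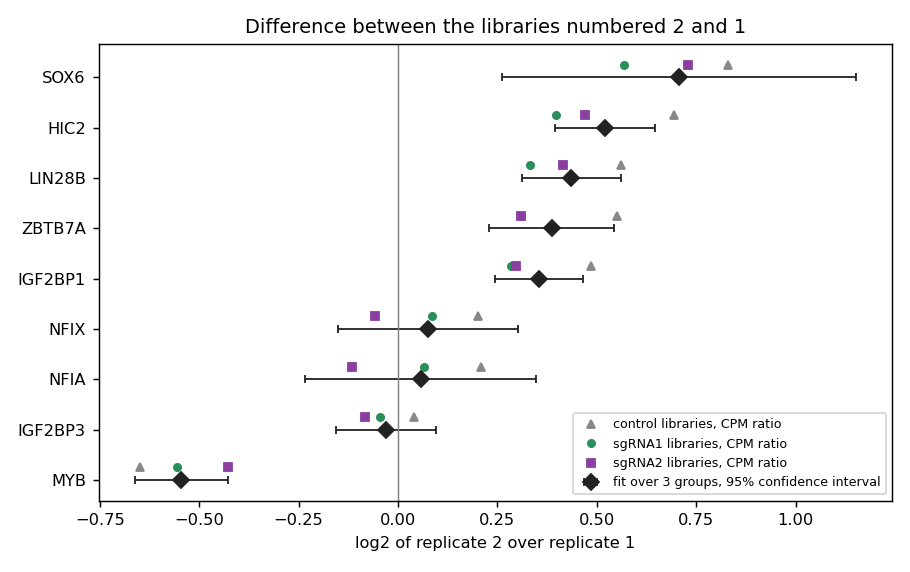
Log2 of replicate 2 over replicate 1 (x axis) for the 9 tested genes, with the fit over all 3 groups as diamonds with 95% confidence intervals and the CPM ratio within each group as coloured points. SOX6, HIC2, LIN28B, ZBTB7A and IGF2BP1 lie above 0 and MYB below 0 in all 3 groups, with the control point furthest from 0 in each of these 6.

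Genes that work with the set were counted in the same blocked knockout contrast. Of 14 genes of the NuRD complex, all tested, CHD4 fell (log2 fold change -1.04, SE 0.0467, edgeR adjusted p = 1.38e-08) and the other 13 were not called. CHD3, the paralogous remodeller of the complex, had a log2 fold change of 0.10. Of 23 other factors known to take part in silencing, among them the histone demethylase KDM1A, the DNA methyltransferase DNMT1 and KLF1, which activates BCL11A and ZBTB7A in erythroid cells, 0 were called. KLF1 itself had a log2 fold change of 0.14 (SE 0.0557, interval 0.03 to 0.26). For some of these genes the counts say little. GATAD2B of NuRD had 25 to 55 counts at 6.70 to 8.10 FPKM, with an interval of -0.88 to 0.62. EHMT2, of the 23 other factors, had 12 to 95 counts at 3.94 to 5.68 FPKM, with an interval of -0.77 to 1.54.

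No paralog of the set was called either. Of 12 paralogs, 7 were tested and 0 were called. BCL11B had 0 counts in every library, as BCL11A did, and LIN28A had 0 to 2 counts. IGF2BP2, at 183 to 192 CPM, had a log2 fold change of 0.02 (SE 0.0540). SOX5 (-0.40, interval -0.68 to -0.12), ZBTB7B (0.25, 0.09 to 0.41) and NFIC (0.18, 0.05 to 0.32) had intervals that did not reach 0, with edgeR adjusted p-values of 0.174, 0.133 and 0.202. Of 12 activators at globin genes, 1 was called: EPAS1, the hypoxia-inducible factor HIF-2 alpha, fell by 1.20 on the log2 scale (SE 0.134, edgeR adjusted p = 0.000175). The NF-Y subunits, GATA1 and TAL1 were not called, and TAL1 had the highest log2 fold change of the list, 0.21 (SE 0.0610).

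Around let-7, 14 of 15 listed genes were in the tables, 9 were tested and 0 were called. HMGA1, a chromatin protein encoded by a let-7 target, had a log2 fold change of 0.08, and HMGA2, a classical target, had 0 or 1 count per library. TUT4 and TUT7, the uridyl transferases of the let-7 pathway, listed as ZCCHC11 and ZCCHC6, had log2 fold changes of -0.0051 and -0.0016. The host transcripts of let-7 microRNAs had few counts. MIRLET7BHG reached 20 and 13 counts under sgNeg2 and 8 to 18 in the knockout libraries, and MIRLET7DHG had 15 and 27 against 6 to 20. The log2 fold change of MIRLET7DHG was -0.84 (SE 0.377, interval -1.65 to -0.04, edgeR adjusted p = 0.354) and that of MIRLET7BHG was -0.47 (SE 0.432). MIR100HG and MIR99AHG had 0 counts in all 6 libraries.

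Of 8 embryonic, fetal and adult globin genes, HBG1 and HBG2 being the fetal ones, 5 were called higher with the block and 0 lower: HBB by 1.40, HBE1 by 0.92, HBZ by 0.64, HBG1 by 0.59 and HBG2 by 0.32 on the log2 scale. Reads of HBG1 and HBG2, which are nearly identical, may be split between them by the counting. None of these 5 was called in the main edgeR fit without the block. The 3 globin genes not called with the block also had log2 fold changes above 0: HBD 0.89, HBA1 0.62 and HBA2 0.54. Their intervals did not reach 0, and their edgeR adjusted p-values were 0.152, 0.334 and 0.113. HBA1 had 83 to 251 counts at 2029 to 3838 FPKM, so its result from counts is uncertain.

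**Figure D4:**
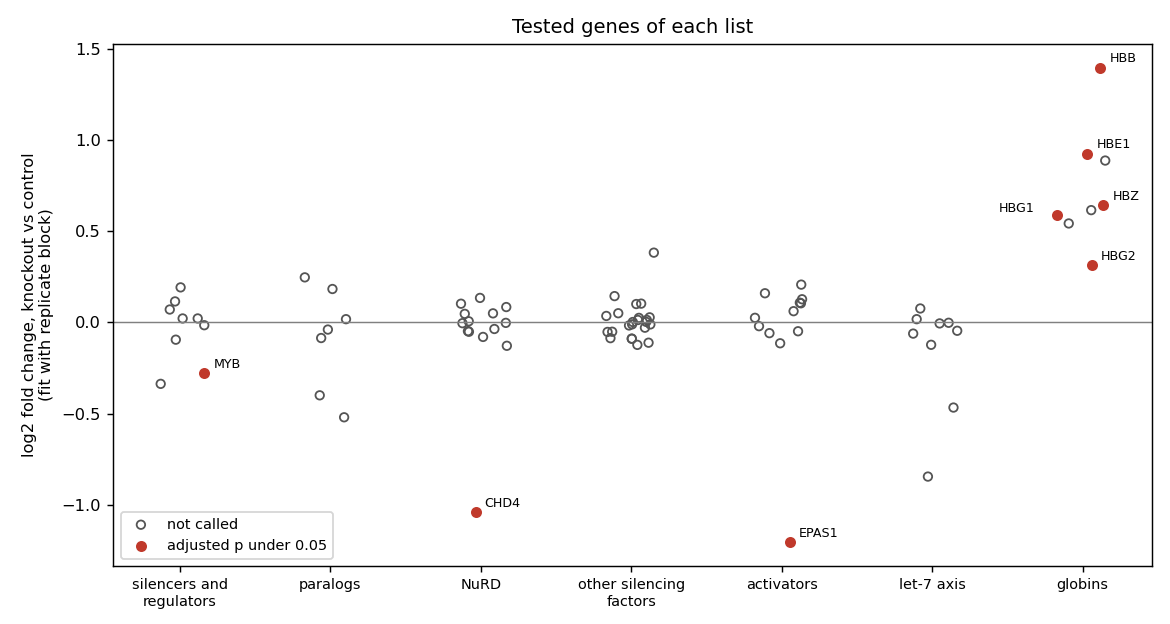
Log2 fold change of knockout against control (y axis), from the fit with a replicate block, for the tested genes of the set and of 6 related lists, with filled points at an edgeR adjusted p under 0.05. The set of silencers lies between -0.34 and 0.19 with MYB as its only filled point, CHD4 and EPAS1 are the filled points of their lists near -1, and 5 of 8 globin genes are filled above 0.

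NFIA had the largest change of the set in the blocked edgeR fit, so the genes most like it over the 6 libraries were sought among 9965 genes averaging 50 counts or more. Pearson correlations of log2 CPM were 0.989 for SPC25, 0.988 for KIAA0196, 0.983 for TM2D3, 0.979 for AIMP2 and 0.978 for PDLIM5. These describe 6 libraries that share their groups and depth, and carry no test. SPC25 had a whole-number count of 0.146 times its estimated count, against a median of 0.553 over tested genes, so its value is uncertain. For BCL11A, with 0 counts, no such search was possible. The strand setting of the counting is not given in the sources used here, so counts of genes with an annotated antisense transcript (MYB, NFIA, NFIX, LIN28B and IGF2BP1) or a neighbour overlapping their end (IGF2BP3 and SOX6) may hold reads of that transcript. The ratio of whole-number to estimated counts was 0.486 to 0.570 in the 9 tested genes of the set, close to the median of all genes.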

How the data were processed

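RNA-seq of 6 K562 libraries was analysed from 2 deposited tables per library. One gave raw whole-number counts for each symbol, as deposited. Rows of reads assigned to no gene took 61.6% to 62.6% of each total and were left out. The other gave gene lengths and estimated counts, which the authors made before they deposited the table, per the file headers. It also gave TPM and FPKM values, which the authors scaled to length and library size. TPM entered no test. The submitters' processing notes name Trim Galore, HISAT2 2.2.1, SAMtools 1.9, HTSeq 0.6.1, RSEM 1.3.2, DESeq2 1.36.0 and hg38, with no role or order.

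Differences in counts were tested in R 4.3.3 by edgeR 4.0.16 (quasi-likelihood F-test, TMM scaling, filterByExpr by group, 12282 genes, Benjamini-Hochberg adjustment over all of them, threshold 0.05). Knockout was set against control as 4 against 2 libraries, and each guide in a fit of 3 group means. SE was obtained by dividing the fitted log2 change by the root of its F statistic, and intervals are 95%. Replicate numbers 1 and 2 occur in every group. Deviations of same-numbered libraries from their group means correlated over 9966 genes at r = 0.811, 0.757 and 0.824, so the fit with a replicate block is given beside the main one. The pairing rests on these correlations, since no label explains the number. With the block the common dispersion went from 0.0445 to 0.00405 in the knockout fit (4 and 3 residual degrees of freedom) and from 0.0585 to 0.00381 in the guide fit (3 and 2).

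Alternatives, each with and without the block except where noted, were DESeq2 1.42.0 size factors, no low-count filter, a mean of at least 50 counts, rounded estimated counts, the DESeq2 Wald test, limma 3.58.1 on log2(FPKM + 1) above a mean FPKM of 0.5, and each library left out. A pseudocount of 0.1 and no FPKM filter were tried with the block only. All 10 genes are described. Of each related list, the genes called with the block are named, at most 6 by adjusted p, and the 5 genes most correlated with the largest-changing gene. KLF1, TAL1, CHD3 and other uncalled list genes with values in the text were chosen after their values were seen. The genes and lists were chosen with earlier results of these data known. Sequences and positions are from RefSeq (GRCh38.p14), where 9 of the 10 genes had a start window. One marker gene of the cell line is not reported here.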

Additional observations from a re-analysis of the deposited data

How the results depend on the processing

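Low or absent counts limit what can be said of BCL11A, SOX6 and the let-7 host transcripts. Genes called for knockout, sgRNA1 and sgRNA2 against control numbered 0, 0 and 0 in the main fit and 226, 109 and 170 with the replicate block. Without the block, the DESeq2 Wald test called 19, 6 and 4, limma 1, 1 and 1, and no filter 1 for knockout. With the block, DESeq2 size factors called 225, 106 and 164, no filter 245, 289 and 421, a mean of at least 50 counts 204, 91 and 131, estimated counts 387, 178 and 289, the DESeq2 Wald test 162, 53 and 76, limma 194, 44 and 94, limma with a pseudocount of 0.1 212, 40 and 84, and limma with no FPKM filter 15, 3 and 1. Leaving out 1 library, with or without the block, gave 0 to 236, 0 to 459 and 0 to 634. Genes of the set called, 0 in the main fit, numbered 1 (MYB) for knockout in 8 of 9 blocked settings with all libraries. They numbered 1 for sgRNA1 with no filter, and 1 for sgRNA2 in the block alone and with DESeq2 size factors, no filter or estimated counts. With limma and no FPKM filter MYB was not called (-0.27, adjusted p = 0.138). Leaving out 1 library gave 0 to 1, 0 to 1 and 0 to 3. The 3 came without control replicate 2 in the blocked sgRNA2 contrast, where HIC2 (0.24, edgeR adjusted p = 0.0434) and ZBTB7A (0.36, 0.0364) joined MYB. For MYB, without the block, leaving out control replicate 1 turned the knockout log2 fold change to 0.062 (adjusted p = 0.982).

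Over fits with and without the block, knockout log2 fold changes with 1 library left out ranged from -0.074 to 0.49 for ZBTB7A, -0.58 to 0.062 for MYB, -0.12 to 0.088 for NFIX, -0.26 to 0.44 for HIC2, -0.37 to 0.20 for LIN28B, -0.22 to 0.27 for IGF2BP1 and -0.35 to 0.48 for SOX6. In the blocked fits alone they were 0.074 to 0.32 for ZBTB7A and -0.35 to -0.20 for MYB, with no change of sign. For MYB, over both kinds of fit, they were -0.57 to 0.090 with sgRNA1 and -0.61 to 0.032 with sgRNA2. Differences between numbers ranged from -0.024 to 0.15 for NFIA and -0.063 to 0.0016 for IGF2BP3. NFIA and IGF2BP3 kept the sign of their knockout log2 fold change in all 27 alternatives, but not its size. With 1 library left out it ranged from -0.46 to -0.22 for NFIA and from 0.057 to 0.17 for IGF2BP3. NFIA, at 1.16 to 1.64 FPKM, was at -0.16 with limma on log2(FPKM + 1). With a pseudocount of 0.1 and the block it was at -0.26. Genes of the set called between numbers were 6, and 4 to 6 over the blocked settings. With estimated counts IGF2BP1 was at -0.013 and, with the block, -0.0013. SOX6 was at -0.00056 with no filter and -0.0093 with limma, the block and a pseudocount of 0.1. The number term turned to -0.045 with estimated counts, -0.020 with limma, -0.035 with a pseudocount of 0.1 and -0.020 with no FPKM filter for NFIA, and to 0.019, 0.025, 0.026 and 0.025 for IGF2BP3. The cause was not tested for any of these changes.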
